A study of Mus musculus with 4 samples.

Results

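Processed pseudogenes with an approved mouse name were examined in CCE mouse embryonic stem cells in which Eif4a2 was the target of a knockdown. The members were the genes of the deposited table whose symbol ends in -ps, with or without a number, and whose normalized read count averaged at least 0.5 over the 4 libraries. This rule kept 171 of the 801 genes with such a symbol, out of 32592 genes in all. The other symbols included 499 with 0 reads in every library. The members were thus selected on their mean level, and levels are given below as a description. The difference between the groups was not used to choose them.

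Both groups came from feeder-free CCE cells, a line of the 129/Sv strain kept with leukemia inhibitory factor, which were infected with shRNA vectors, selected for 3 days in 1 µg/mL puromycin and collected on day 4.5. The knockdown group (2 libraries) received an shRNA against eIF4A2, an RNA helicase of the translation initiation machinery. The control group (2 libraries) received a control vector (shLuc or shEV). The protocol names 2 vectors for each group, and the labels do not say which library received which. All cells are of 1 line, and nothing says that replicates came from separate infections, so the spread behind the p-values is that of these libraries and may be technical alone.

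A processed pseudogene is a copy of an mRNA that was reverse transcribed and inserted elsewhere in the genome, so it usually lacks the introns and the promoter of its parent gene. In mammals the enzymes of LINE-1 elements make such copies, and genes with abundant mRNA in the germ line, above all those of ribosomal proteins, have left many. Because a young copy differs from its parent at few bases, short reads of the parent mRNA and of a transcribed copy can be hard to tell apart. The name of a pseudogene gives the parent, so that Rpl14-ps1 is a copy of Rpl14.

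GENCODE M21 listed 135 of the 171 members as processed pseudogenes and 10 as transcribed processed pseudogenes, so the label held for 145. The others were 9 transcribed unprocessed, 5 unprocessed, 2 transcribed unitary and 1 unitary pseudogenes, 7 genes annotated as protein coding and 2 as lincRNA. A single exon block made up 144 members. Their exon length ran from 151 to 12025 bases, with a median of 681. They lay on 20 chromosomes, with 14 on X and 0 on Y. An exon of another gene overlapped 18 of them, on the opposite strand in 14 cases. The strand setting of the authors' counting is not given in the sources used here, so reads of such overlapping genes cannot be told apart.

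The likeness of copy and parent is shown with stretches of 120 coding bases from GENCODE M21 transcripts (GRCm38). The first set holds the 3 members with the most reads, and capitals mark bases at which copy and parent differ. Positions count from 1 at the A of the parent's start codon. Rpl14-ps1 (ENSMUSG00000046721, chr7:45324965-45325617, plus strand) lies inside Trpm4, and Rps16-ps2 (ENSMUSG00000060419, chr5:129128077-129128517, minus strand) lies inside Adgrd1. Eef2-ps2 (ENSMUSG00000082575, chr4:143242024-143243368, minus strand) lies in no other annotated gene. For Rpl14-ps1 and Rps16-ps2, coding bases 1 to 120 are shown, and the parent has the same letters throughout. For Eef2-ps2, bases 1233 to 1352 are shown, with the substitutions G1269A, C1282T, A1288C and A1326G, the base of Eef2 first.
Rpl14-ps1: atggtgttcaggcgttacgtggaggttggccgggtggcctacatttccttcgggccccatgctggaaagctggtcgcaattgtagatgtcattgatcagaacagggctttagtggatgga
Rps16-ps2: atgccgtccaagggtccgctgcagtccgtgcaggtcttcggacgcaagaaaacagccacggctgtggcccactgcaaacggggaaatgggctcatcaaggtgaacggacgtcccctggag
Eef2-ps2: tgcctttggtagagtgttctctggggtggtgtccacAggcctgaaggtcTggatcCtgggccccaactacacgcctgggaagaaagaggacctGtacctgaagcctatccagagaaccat
Eef2: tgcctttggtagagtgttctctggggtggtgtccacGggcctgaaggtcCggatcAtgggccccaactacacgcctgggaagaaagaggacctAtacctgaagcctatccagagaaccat

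The second set holds members that fell or rose with an aligned parent, at coding bases 1 to 120. Cbx3-ps7 (ENSMUSG00000059647, chr1:58646688-58647239, plus strand) has the letters of Cbx3 throughout this stretch. Ccnd3-ps (ENSMUSG00000080708, chr4:139345300-139346180, minus strand) differs from Ccnd3 by G12A, G46A, G67A, G68T and C76T. Pisd-ps1 (ENSMUSG00000082286, chr11:3125904-3131004, plus strand) has 7 exon blocks and is annotated as a transcribed unprocessed pseudogene, and it differs from Pisd by G21T, G48A, C79T and A117T.
Cbx3-ps7: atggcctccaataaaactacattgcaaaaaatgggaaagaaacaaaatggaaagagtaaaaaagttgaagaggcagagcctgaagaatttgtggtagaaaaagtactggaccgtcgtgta
Ccnd3-ps: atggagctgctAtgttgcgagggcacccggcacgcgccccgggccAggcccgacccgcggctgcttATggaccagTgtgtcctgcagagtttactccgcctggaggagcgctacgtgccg
Ccnd3: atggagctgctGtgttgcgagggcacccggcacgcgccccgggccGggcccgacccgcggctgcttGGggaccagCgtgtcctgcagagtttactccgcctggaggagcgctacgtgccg
Pisd-ps1: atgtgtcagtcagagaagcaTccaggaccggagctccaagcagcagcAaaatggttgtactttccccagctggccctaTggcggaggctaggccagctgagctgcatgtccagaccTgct
Pisd: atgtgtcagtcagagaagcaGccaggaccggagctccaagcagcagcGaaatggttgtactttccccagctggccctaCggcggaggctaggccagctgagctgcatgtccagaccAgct

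The table held a gene with the parent's symbol for 145 members, copies of 130 different genes, and none for the other 26. Over their alignment these 145 members were a median of 98.8% identical to the parent transcript, in a range of 73.1% to 100%. In 66 the identity was at least 99%, and 17 had no difference. An open reading frame over the whole coding span was kept by 67, while 54 carried a frameshift and 40 held only a portion of the coding span. A read of 100 bases was the unit sequenced, so every run of 100 bases in each member was looked up in all other annotated transcripts. No run was shared by 41 members, at least 50% of runs by 63, and every run by 22. Strand was ignored in this search, so a transcript that overlaps a member at the same locus counts as well. Of the 29368 runs shared with the parent, 19450 (66.2%) crossed a boundary between 2 exons of the parent. As background, Bowtie2 does not align a read across an intron, whereas a copy without introns holds those bases in 1 piece. The part of such reads in the counts was not tested, and how the authors assigned reads that align equally well in several places is not given in the sources used here. Values of pairs with shared runs are therefore uncertain as to which locus the RNA came from.

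The library sizes recovered from the table were 10646302 and 12009899 reads in the knockdown-labelled libraries and 13681765 and 4604200 reads in the controls. Values are normalized read counts, that is CPM on the authors' effective library size, and 3 reads correspond to 0.221 to 0.679 of them. Eif4a2, the targeted gene, stood at 753 and 814 in the knockdown-labelled libraries and at 531 and 379 in the controls. Its log2 change, on the scale of log2(value + 1) used throughout, was 0.80 ± 0.15 (SE, adjusted p = 0.0140), higher in the libraries labelled knockdown. The direction of every difference below is that of the labels. All 8 embryonic stem cell markers were present, and 4 of them fell (summed 8315 and 7998, against 11250 and 10563). Of 8 fibroblast markers 4 could be tested and 2 rose, with Dcn and Lum at 0 in every library (summed 39.7 and 40.1, against 24.3 and 19.7). Their part in the results below was not tested. In bulk RNA, fewer cells of a type and less RNA per cell cannot be told apart.

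The 171 members held 1.503% and 1.503% of all recovered reads in the knockdown-labelled libraries, against 1.54% and 1.47% in the controls. The 95% Wilson intervals of these shares extend at most 0.0110 percentage points to either side and cover counting error only. The members' normalized counts summed to 14202 and 14052 in the knockdown-labelled libraries and to 15522 and 15323 in the controls. The sums over all genes were also lower, at 945216 and 935177, against 1006945 and 1041857 in the controls. Of the members' sum, the 12 with the most reads supplied 50.0% and 50.4% in the knockdown-labelled libraries and 49.0% and 49.1% in the controls. By mean normalized count, 32 members exceeded 100, 82 lay between 10 and 100, and 57 fell below 10, of which 17 were below 1. The median was 23.2.

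Most of the 12 members with the most reads were named for genes of ribosomal proteins and translation factors. Rpl14-ps1, whose parent encodes a protein of the large ribosomal subunit, had 1408 and 1357 normalized counts in the knockdown-labelled libraries and 1577 and 1517 in the controls. Rps16-ps2, a copy of a small subunit gene, had 1084 and 1139, against 996 and 995 in the controls. Eef2-ps2, a copy of the gene of the elongation factor that moves the ribosome along the mRNA, had 861 and 909, against 936 and 839. The groups of Eef2-ps2 overlapped, while those of Rpl14-ps1 and Rps16-ps2 did not, and the change passed the test for none of the 3 (limma adjusted p of 0.205 for Rps16-ps2, 0.217 for Rpl14-ps1 and 0.990 for Eef2-ps2). Of all 14890 genes tested 23.0% passed, and 66.8% had groups that did not overlap.

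Below these stood Hspd1-ps3, from the gene of the mitochondrial chaperonin Hsp60, with 615 and 599 in the knockdown-labelled libraries and 860 and 945 in the controls. Tpt1-ps3, from the gene of the translationally controlled tumor protein, had 405 and 391.8, against 550 and 522. These were the only members among the 12 with the most reads whose change passed the test. Rpl10a-ps1 (502 and 506, against 478 and 455) and Impdh2-ps (429 and 425, against 467 and 485), a copy of a gene of guanine nucleotide synthesis, did not pass. Neither did Dynlt1-ps1 (437 and 430, against 401 and 391), named for a dynein light chain, and Eif5al3-ps (375 and 336, against 401 and 462), named for an initiation factor. The ribosomal copies Rps15-ps2 (353 and 352, against 346 and 290), Rpl3-ps1 (309 and 295, against 330 and 320) and Rpl36a-ps3 (326 and 342, against 272 and 296) completed the 12. The groups did not overlap in any of the 7 members just named, with adjusted p-values between 0.0806 and 0.348.

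**Figure D1:**
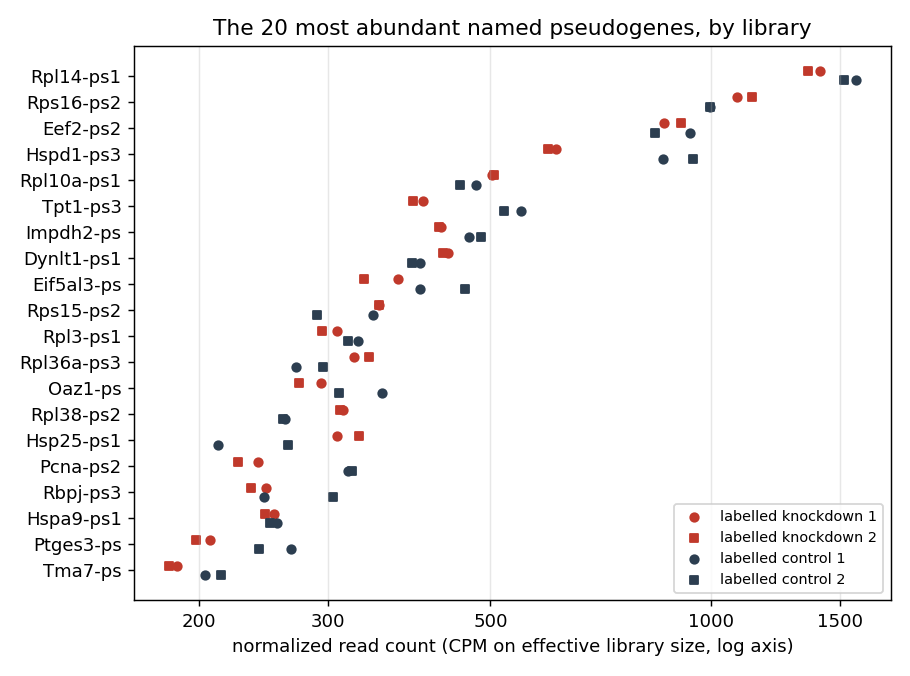
Normalized read count (log axis) of the 20 named pseudogenes with the most reads, 1 point per library, with the knockdown-labelled libraries in red above the controls in dark blue. Hspd1-ps3 and Tpt1-ps3, which passed the test, lay lower in both knockdown-labelled libraries than in both controls. Others, such as Rpl14-ps1 and Impdh2-ps, did so too without passing.

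At the lower edge of the rule, Slfn10-ps averaged 0.604, Prdx6-ps2 0.581 and Rpl17-ps10 0.532, just inside. Just outside lay Llph-ps1 (0.495), Dppa3-ps (0.491) and Gad1-ps (0.486). At this level a library holds few reads, and Dppa3-ps had 0 in control 2, where the floor of 3 reads is 0.679.

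In 130 pairs both genes could be tested. By reads alone, 56 of these copies held more than 50% of the reads of their pair, with a median share of 41.0%. Set against exon length, 85 copies had more normalized reads per kb of exon than the parent, with a median ratio of 2.95. Exon length here is that of all annotated exons of a gene together, which can exceed the length of its mRNA and so raise this ratio. Rps16-ps2 had 2389 per kb, against 17.98 per kb for Rps16, and it held 98.0% and 98.1% of the reads of the pair in the knockdown-labelled libraries, against 97.8% and 97.5% in the controls. Rpl38-ps2 had 1349 per kb, against 3.16 per kb for Rpl38. Both copies share every run of 100 bases with the parent.

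Other copies among the 6 with the largest share of their pair were Ndufs5-ps, Oaz1-ps and Apoo-ps. Ndufs5 encodes a subunit of mitochondrial complex I, and Oaz1 encodes ornithine decarboxylase antizyme. The parents had few reads, with means of 0.467 for Ndufs5, 2.67 for Oaz1 and 0.477 for Apoo. In control 2, 3 reads correspond to 0.679. Ndufs5 and Apoo were too low to be tested. The share of Oaz1-ps was 99.1% and 99.04% in the knockdown-labelled libraries and 99.1% and 99.3% in the controls. Nlrp5-ps held all reads of its pair, as Nlrp5, an oocyte gene, was listed at 0 in every library. In contrast, Eef2-ps2 had 659 per kb, against 1066 per kb for Eef2, and held 19.8% and 20.01% of the pair in the knockdown-labelled libraries and 20.4% and 19.9% in the controls. Only 0.161% of its runs of 100 bases are also in Eef2. Among named pairs with a mean of at least 5, the 95% Wilson interval of a share in 1 library extended at most 7.87 percentage points to either side.

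The ratio of levels differed with the shared sequence. The median ratio per kb of copy to parent was 0.520 in 33 pairs without a shared run, 3.39 in 56 pairs with under 50% shared and 6.72 in 41 pairs with 50% or more. Over pairs, Spearman's correlation of this ratio with the shared percentage was 0.40, a description across genes that share libraries. The levels per kb of copy and parent had a Spearman correlation of 0.08.

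**Figure D2:**
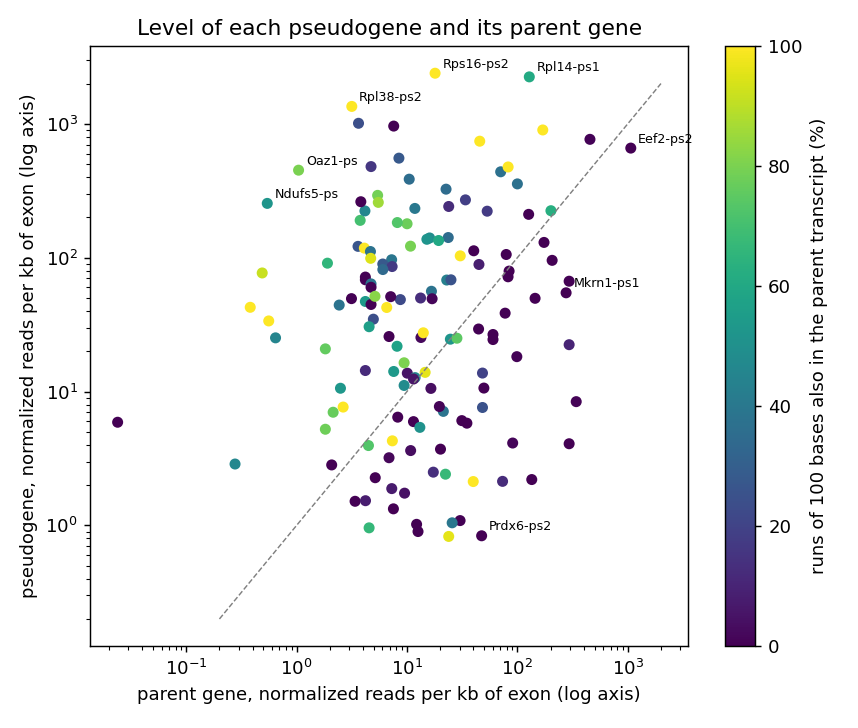
Mean normalized reads per kb of exon of each pseudogene (vertical) and its parent gene (horizontal), both on log axes, coloured by the percentage of 100-base runs also found in the parent transcript. The dashed line marks equal levels, and Rps16-ps2 and Rpl38-ps2, which share every run, lie far above it.

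Of the 171 members 158 passed the filter on low counts. In the comparison of knockdown-labelled with control libraries, 41 of them passed the test, 9 that rose and 32 that fell. That is 25.9% of those tested, against 23.0% of all 14890 genes tested. The members that rose were 5.70% of those tested, against 10.5% of all genes, and those that fell 20.3%, against 12.4%. Their median log2 change was -0.14, against -0.01 for all genes. It was -0.13 for other pseudogenes, those with a clone or prediction name. For the tested parents of members it was -0.08, and for genes of ribosomal proteins -0.07. The groups did not overlap for 110 members, 32 higher and 78 lower, where 66.8% of all genes had groups that did not overlap. The other 117 tested members did not pass, and 13 were not tested, with means of at most 0.880.

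The balance of higher and lower depended on the scaling. With scaling by library size alone 14 members rose and 15 fell, and the median of all genes shifted by 0.11 on the log2 scale. With upper-quartile scaling 10 members rose and 20 fell. Of all genes, 1567 rose and 1851 fell on the deposited scale, against 2152 and 996 by library size and 1881 and 1336 by upper quartile. Relative to the median of all genes, the members' median was -0.13 on the deposited scale and -0.14 on either of the others.

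The number that passed moved with single libraries, for the members as for all genes. In the 4 fits that each left out 1 library, the members' median log2 change was -0.18 without knockdown 1 and -0.09 without knockdown 2. It was -0.14 without control 1 and without control 2. The median of all genes lay between -0.02 and -0.01 in these 4 fits. The fits without a knockdown library take their spread from the controls alone. Ccnd3-ps, Mkrn1-ps1, Anp32-ps, Cdv3-ps, Rtraf-ps, Cbx3-ps7, Pisd-ps1 and Slc2a4rg-ps passed in all 4 of these fits. The knockdown-labelled libraries differed from each other by a median of 0.0955 on the log2 scale, and the controls by 0.198.

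The shares below stand against 10.5% of all genes tested that rose and 12.4% that fell. Beside the members, 824 other pseudogenes had a clone or prediction name and the same minimum mean. Of these 768 were tested, and 19 (2.47%) rose and 107 (13.9%) fell. Of 78 genes of ribosomal proteins 2 (2.56%) rose and 4 (5.13%) fell. Of the members that GENCODE lists as processed pseudogenes 137 were tested, and 6 (4.38%) rose and 29 (21.2%) fell. Of the 41 members without a shared run 35 were tested, and 2 (5.71%) rose and 8 (22.9%) fell. The authors' deposited table gave an adjusted p below 0.05 to 38 members, 8 that rose and 30 that fell. Of the 41 given here 36 passed there with the same sign. Rpl38-ps2, Hsp25-ps1, Ptges3-ps, Rbx1-ps and Npm3-ps1 did not pass there.

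**Figure D3:**
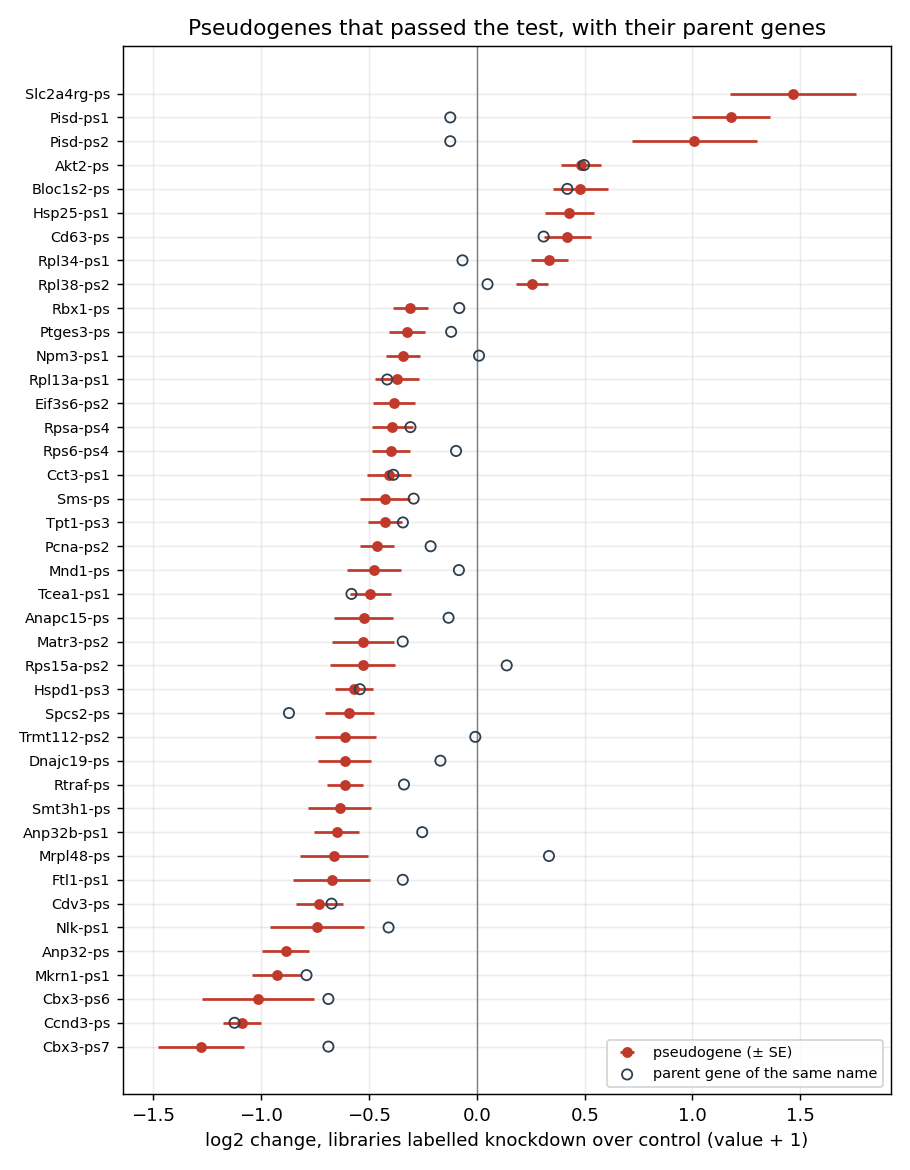
Log2 change of the 41 named pseudogenes that passed the test (filled points, bars show the SE) and of the parent gene of the same name where it was tested (open circles), for knockdown-labelled over control libraries. The 9 that rose stand above the 32 that fell, and the points of Pisd-ps1 and Pisd-ps2 lie far to the right of Pisd.

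For description, members were grouped by the function of the gene in their name, after values were seen, so the counts of the groups support nothing about them. Of all genes tested 12.4% fell and 10.5% rose. Of 29 tested members named for genes of the cell cycle, chromatin and transcription, 10 (34.5%) fell and 1 (3.45%), Slc2a4rg-ps, rose. The 3 members with the largest decreases, Cbx3-ps7, Ccnd3-ps and Cbx3-ps6, were in this group. Cbx3-ps7 and Cbx3-ps6 are copies of the gene of heterochromatin protein 1 gamma. Cbx3-ps7 had 6.57 and 5.92 normalized counts in the knockdown-labelled libraries and 14.1 and 19.5 in the controls, a log2 change of -1.28 ± 0.20 (SE, adjusted p = 0.00860). Cbx3-ps6 had 1.60 and 1.48, against 5.30 and 3.17 (log2 change -1.01 ± 0.26, adjusted p = 0.0336). In both members every control value exceeded every knockdown-labelled value. Each shares all of its runs of 100 bases with some other annotated transcript, and each overlaps an exon on the opposite strand. The overlapping transcript counts among those that can share runs. Cbx3-ps6 no longer passed when knockdown 1 (adjusted p = 0.122) or knockdown 2 (0.189) was left out.

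Ccnd3-ps, a copy of the gene of the G1 cyclin D3, had 65.8 and 60.5 normalized counts in the knockdown-labelled libraries and 137 and 134 in the controls. The groups stood far apart beside the spread within each, and the log2 change was -1.09 ± 0.09 (SE, adjusted p = 0.00256). It shares no run of 100 bases with any other annotated transcript and has a frameshift. Ccnd3 itself had 234 and 210, against 447 and 523 (log2 change -1.12, adjusted p = 0.00271). The copy held 21.9% and 22.4% of the reads of the pair in the knockdown-labelled libraries and 23.5% and 20.4% in the controls, so the share overlapped between the groups.

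Anp32-ps, whose name corresponds by synonym to Anp32a, the gene of a nuclear histone-binding protein, had 53.4 and 45.0, against 93.1 and 89.6 (log2 change -0.88 ± 0.11, adjusted p = 0.00473). Anp32a also fell, with 236 and 203, against 369 and 341. Anp32b-ps1 fell as well (131 and 117, against 180 and 211), and without knockdown 2 its adjusted p was 0.0575. The other members of the group that fell were copies of Matr3 (nuclear matrix), Tcea1 (transcript elongation), Mnd1 (meiotic recombination), Pcna (the sliding clamp of replication) and Npm3 (a histone chaperone), with log2 changes between -0.53 and -0.34. Pcna-ps2 had 241 and 227, against 320 and 324, with an adjusted p of 0.0593 without knockdown 1 and 0.153 without knockdown 2.

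Slc2a4rg-ps, the 1 member of the group that rose, had the largest increase of all members, and it is a transcribed unitary pseudogene, a gene that lost its function in place and not a copy. It had 10.1 and 10.4 normalized counts in the knockdown-labelled libraries and 4.49 and 2.04 in the controls. The log2 change was 1.47 ± 0.29 (SE, adjusted p = 0.0159), and the values of the groups did not overlap.

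Of 22 tested members named for genes of chaperones, protein targeting and protein turnover, 9 (40.9%) fell and 1 (4.55%) rose, against the 12.4% and 10.5% of all genes. Hspd1-ps3, with the values given above, changed by -0.57 ± 0.09 (SE, adjusted p = 0.00782), and Hspd1 by -0.54. Its adjusted p was 0.0443 without knockdown 1 and 0.0782 without knockdown 2. Mkrn1-ps1, a copy of the gene of a ubiquitin ligase, had 57.3 and 47.1, against 98.0 and 102 (log2 change -0.93 ± 0.11, adjusted p = 0.00471). Mkrn1, which had most of the reads of this pair, also fell (961 and 837, against 1443 and 1668), and the copy shares no run with it. Smt3h1-ps, an older name of a SUMO gene, had 13.3 and 13.4, against 19.9 and 22.9, and it passed neither without knockdown 1 (adjusted p = 0.163) nor without knockdown 2 (0.198). Sumo3, its parent by synonym, fell too (163 and 154, against 231 and 251).

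The other members of this group that fell were copies of Dnajc19, Spcs2, Anapc15, Cct3, Ptges3 and Rbx1, with log2 changes between -0.61 and -0.31. Spcs2 encodes a subunit of the signal peptidase, Cct3 one of the chaperonin that folds actin and tubulin, Anapc15 one of the anaphase-promoting complex and Rbx1 the RING subunit of cullin ligases. Hsp25-ps1, named for a small heat shock protein, was the member that rose, with 309 and 331, against 212 and 264 (log2 change 0.43 ± 0.11, adjusted p = 0.0376). The change was 0.27 without control 1, and without knockdown 1 and knockdown 2 the adjusted p was 0.0937 and 0.235. An exon on the opposite strand overlaps 69.2% of this member.

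Copies of ribosomal protein genes were the largest group, with 45 members. Of 40 tested, 2 (5.0%) rose and 4 (10%) fell, against 10.5% and 12.4% of all genes, and their median log2 change was -0.14. Rpl38-ps2 had 314 and 312 normalized counts in the knockdown-labelled libraries and 263 and 261 in the controls, a log2 change of 0.26 ± 0.07 (SE, adjusted p = 0.0459). Rpl34-ps1 had 87.3 and 89.5, against 71.0 and 68.8 (log2 change 0.34 ± 0.09, adjusted p = 0.0334). In both the replicates lay close together and the groups apart. With DESeq2 the adjusted p was 0.0891 for Rpl38-ps2 and 0.0880 for Rpl34-ps1, so neither passed. In the authors' deposited comparison the adjusted p was 0.416 for Rpl38-ps2 and 0.0434 for Rpl34-ps1. Without knockdown 1 the adjusted p was 0.376 for Rpl38-ps2 and 0.248 for Rpl34-ps1, and without knockdown 2 it was 0.404 and 0.359.

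The ribosomal copies that fell were Rps15a-ps2, Rps6-ps4, Rpsa-ps4 and Rpl13a-ps1, with log2 changes between -0.53 and -0.37. Of these 4 parents only Rpl13a fell (log2 change -0.42, adjusted p = 0.0413). The group of translation factor and ribosome assembly genes here also took in Tpt1, whose protein is not a translation factor. Among 9 tested copies of genes in this group, 3 (33.3%) fell, against 12.4% of all genes. These were Tpt1-ps3 (log2 change -0.43 ± 0.08, adjusted p = 0.0128), Trmt112-ps2, from the gene of a methyltransferase cofactor, and Eif3s6-ps2, named for a subunit of initiation factor 3. Tpt1-ps3 passed neither without knockdown 1 (adjusted p = 0.102) nor without knockdown 2 (0.184).

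Of 28 tested members named for genes of metabolism and the mitochondrion, 2 (7.14%) rose and 3 (10.7%) fell, against 10.5% and 12.4% of all genes. Those that rose are both named for Pisd, the gene of the mitochondrial phosphatidylserine decarboxylase, which makes phosphatidylethanolamine. Pisd-ps1 had 60.6 and 65.1 in the knockdown-labelled libraries and 33.3 and 22.2 in the controls, a log2 change of 1.18 ± 0.18 (SE, adjusted p = 0.00826). Pisd-ps2, on chromosome 17, had 7.19 and 11.5, against 3.09 and 5.205 (log2 change 1.01 ± 0.29, adjusted p = 0.0459), and without knockdown 2 its adjusted p was 0.337. The groups did not overlap in either.

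Pisd itself had 39.8 and 35.9, against 42.5 and 40.0, and did not pass (log2 change -0.12, adjusted p = 0.450). Pisd-ps1 accordingly held 60.4% and 64.5% of the reads of the pair in the knockdown-labelled libraries, against 43.9% and 35.6% in the controls. The difference between copy and parent was not itself tested. Neither copy is annotated as processed, and Pisd-ps1 shares no run of 100 bases with another annotated transcript.

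The metabolic copies that fell were Ftl1-ps1, Mrpl48-ps and Sms-ps. Ftl1-ps1, from the gene of the ferritin light chain, had 11.99 and 11.4, against 22.3 and 16.5, and its adjusted p was 0.143 without knockdown 1 and 0.234 without knockdown 2. Mrpl48-ps, from the gene of a mitochondrial ribosomal protein, had 18.8 and 15.0, against 29.1 and 25.3 (log2 change -0.66 ± 0.16, adjusted p = 0.0276). Leaving out knockdown 1 gave an adjusted p of 0.0535, and leaving out knockdown 2 gave 0.278. Mrpl48 had 46.7 and 41.4, against 24.3 and 49.3, so its controls lay on either side of the knockdown-labelled values.

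Of 30 tested members outside these groups 3 (10%) rose and 3 (10%) fell, near the shares of all genes. Akt2-ps, a copy of a kinase gene of insulin signalling, had 79.9 and 84.8, against 60.6 and 56.6 (log2 change 0.48 ± 0.09, adjusted p = 0.0145), and Akt2 rose by the same measure (0.50). Bloc1s2-ps, from a gene of lysosome-related organelle biogenesis, had 92.3 and 98.8, against 76.9 and 60.4. Cd63-ps, from the gene of a tetraspanin of late endosomes, had 117 and 126, against 99.4 and 82.6. None of these 3 passed without knockdown 1 (adjusted p between 0.0860 and 0.109) or without knockdown 2 (0.197 to 0.283), and without control 2 the change of Bloc1s2-ps was 0.31.

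Cdv3-ps had 33.7 and 35.5, against 61.7 and 54.8 (log2 change -0.73 ± 0.11, adjusted p = 0.00738). Rtraf-ps, from the gene of a subunit of the tRNA ligase complex, had 131 and 126, against 189 and 205 (log2 change -0.61 ± 0.08, adjusted p = 0.00603). Both had lower values in each knockdown-labelled library than in either control. Nlk-ps1, from a kinase gene, had 4.26 and 6.31, against 9.94 and 8.83, with an adjusted p of 0.0497. Its adjusted p was 0.397 without knockdown 1 and 0.114 without knockdown 2.

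Copy and parent were compared in the 130 pairs with both genes tested, which share libraries. Pearson's correlation of the 2 log2 changes across pairs was 0.50 and Spearman's was 0.46. The median difference, copy minus parent, was -0.05, and 119 pairs differed by less than 0.5. Both genes passed in 14 pairs, with the same sign in all 14, the copy alone in 22, the parent alone in 8 and neither in 86. Of the 124 tested parents of members 2 (1.61%) rose and 20 (16.1%) fell, against 10.5% and 12.4% of all genes tested. In either direction 17.7% of these parents passed, against 23.0% of all genes tested.

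The 14 pairs in which both passed were those of Akt2, which rose, and of Ccnd3, Spcs2, Mkrn1, Cdv3, Tcea1, Hspd1, Rpl13a, Nlk, Cct3, Matr3 and Tpt1, and both Cbx3 copies, which fell. Pearson's correlation was 0.40 in the 33 pairs without a shared run of 100 bases. It was 0.49 in the 56 with under 50% shared and 0.65 in the 41 with 50% or more. Spearman's was 0.37, 0.52 and 0.53 in the same order. These differences between the classes were not tested. Of the 9 pairs without a shared run whose copy passed, the parent passed in 6, and Ccnd3-ps, Mkrn1-ps1, Cct3-ps1 and Nlk-ps1 were among them.

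**Figure D4:**
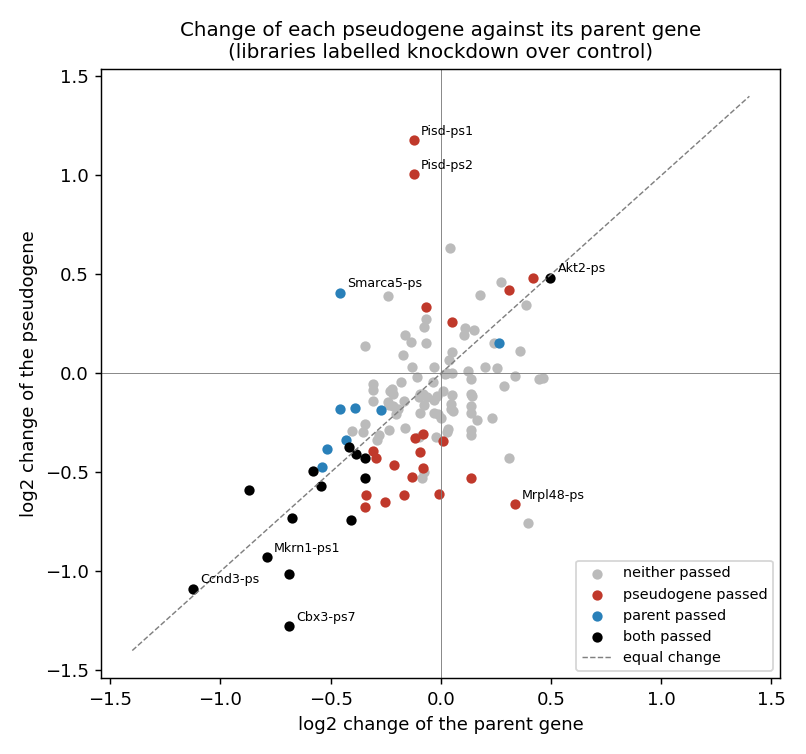
Log2 change of each pseudogene (vertical) against that of its parent gene (horizontal) for the 130 pairs in which both were tested, coloured by which of them passed the test. The dashed line marks equal change, Ccnd3-ps and Akt2-ps lie near it, and Pisd-ps1 and Pisd-ps2 stand above all other pairs.

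Besides the Pisd copies, those of Mrpl48-ps, Smarca5-ps and Nutf2-ps1 were among the pairs that differed most in log2 change. Smarca5-ps, from the gene of a chromatin remodelling ATPase, had 9.32 and 9.27, against 6.11 and 7.47, and did not pass (adjusted p = 0.146), while Smarca5 fell (117 and 109, against 151 and 161). Nutf2-ps1, from a gene of nuclear transport, had 10.3 and 10.7, against 13.2 and 15.8, and Nutf2 had 33.2 and 32.7, against 25.5 and 27.4. Neither gene of the Nutf2 pair passed.

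Several parents had more than 1 member. Of the 4 Rpsa copies 1 fell, with log2 changes of all 4 between -0.39 and -0.05, and Rpsa changed by -0.31 (adjusted p = 0.247). Of the 4 Rps15a copies 1 fell, Rps15a-ps2, which shares no run with another transcript, while all 4 lay between -0.53 and -0.10. The copies of Rpl9, Rpl36, Rpl36a and Uqcrh, 2 each, did not pass, nor did the 1 tested copy of Rpl17. Of the 10 parents with 2 or more members, the Cbx3 and Pisd copies were those in which every member passed.

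**Figure D5:**
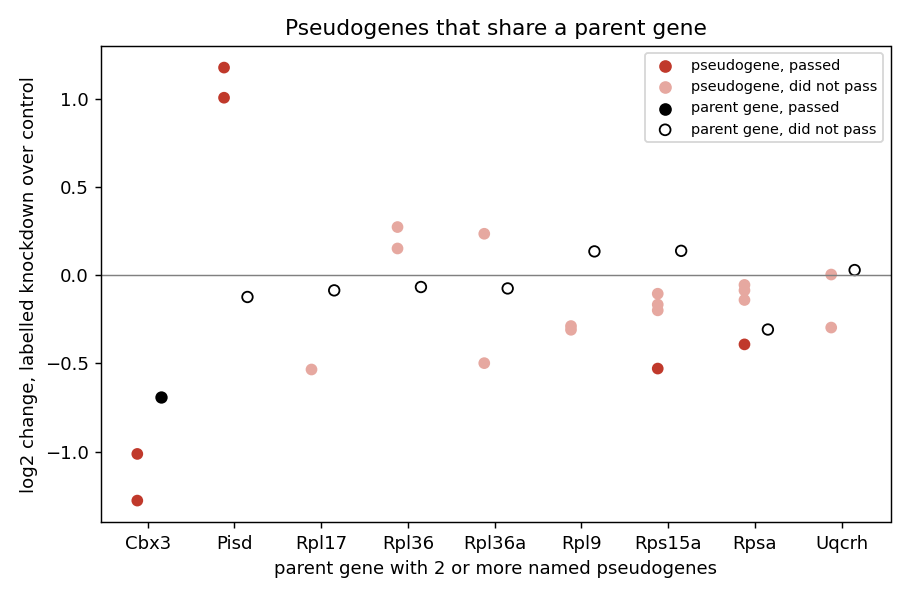
Log2 change, knockdown-labelled over control libraries, of pseudogenes that share a parent, for 9 parents (red, pale where the test was not passed) and of the parent (black circle to the right, filled where it passed). Both Cbx3 copies lie below 0 with Cbx3, and both Pisd copies lie above 0 with Pisd near 0.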

How the data were processed

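RNA of 4 samples was sequenced as poly(A) libraries with single-end reads of 100 bp, per the labels' protocols. Per the submitters' processing notes, Bowtie2 2.3.4.3, SAMtools 1.9, HTSeq 0.11.2, edgeR 3.26.8 and build mm9 were used, with no roles given. No source used here names the annotation release. Each deposited signal value is a read count per gene divided by an effective library size, and its values came out as whole reads for 100% of entries within a tolerance of 0.001. Per the file headers, the deposited table also holds a log2 fold change, a test score (likelihood ratio) and p-values from the comparison that the authors ran.

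The planned test for normalized values was used, limma 3.58.1 in R 4.3.3 on log2(value + 1) with a variance trend, two-sided, with Benjamini-Hochberg adjustment over 14890 genes that passed filterByExpr of edgeR 4.0.16 on the recovered reads. An adjusted p below 0.05 counted as passed. Log2 changes understate those of low genes. Alternatives were edgeR's quasi-likelihood test, DESeq2 1.42.0, other scalings, pseudocounts and filters, and leaving out each library. Replicates differed by more than counting noise (chi-square per degree of freedom 1.95 for the knockdown-labelled libraries and 12.8 for the controls), and no library was a repeat of another.

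Sequences, gene types and coordinates came from GENCODE M21 (GRCm38), matched by gene ID and not converted from mm9. Members and lists were chosen with earlier results of these data known, and the groups by function after values were seen. Named members were the 12 with the highest mean, up to 12 that rose most and 12 that fell most among those that passed, the 3 on each side of the minimum, the 6 pairs that differ most and the 6 largest shares of a pair, with their parents. Further members that passed are named only within their group and were chosen after values were seen. A few members that fall under this rule are not reported here.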

Additional observations from a re-analysis of the deposited data

How the results depend on the processing

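None of the 41 members that passed changed sign under any alternative. Of 158 tested members 42 passed with edgeR's quasi-likelihood test, 23 with DESeq2 and 14 with no variance trend. After thinning to the shallowest library 27 passed. With no filter on low values 27 of 171 passed. Among members without a shared run of 100 bases, a smaller set, 10 of 35 passed. With library size alone the number of members was 29 and with upper-quartile scaling 30, of which 24 and 29 were among the 41. Leaving out 1 library gave 8 to 74 members and 653 to 7724 of all genes. Of the 14890 genes tested 3764 passed with edgeR's quasi-likelihood test, 2184 with DESeq2 and 1932 with no variance trend. After thinning 2620 passed, with library size alone 3148 and with upper-quartile scaling 3217. With no filter on low values 2751 of 20934 genes passed. The members' median log2 change was -0.036 with library size alone, -0.0882 with upper-quartile scaling, -0.115 with pseudocount 3, -0.1148 without shared runs and -0.1826 to -0.091 with 1 library left out. The median difference between copy and parent ranged from -0.1142 to -0.0138 with 1 library left out. Eif4a2 kept its log2 change of 0.80 with no variance trend, at an adjusted p of 0.0581, and the range was 0.56 to 1.044 with 1 library left out. With the replicate number as a block, 49 members and 4632 genes passed. The deviations of same-numbered libraries correlated by 0.0356. With 2 libraries per group this value cannot decide whether the numbers pair the samples. Where no cause is stated, the cause was not tested. A depth of 4604200 reads in control 2 limits members near the minimum.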
